A study of Mus musculus with 6 samples.

Results

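The forkhead genes Foxp1, Foxp2, Foxp4, Foxo1, Foxo3, Foxn3, Foxk1 and Foxm1 were followed in whole brains of mouse embryos at E18.5. They were chosen by name, as forkhead factors known from brain tissue or from dividing cells, with earlier results of these data known. Every probe set assigned to exactly 1 gene, that gene being one of the 8, was taken, which gave 35 of the 45037 probe sets on the array that were not controls. A further 2 probe sets were assigned to Foxo3 or Foxm1 together with other genes and are not counted. The 3 tested brains carried a Foxf2 mutation and the 3 others were wild type, all on the C57/bl6 background and all E18.5, with 1 array per brain sample. The labels do not describe the allele, do not say whether it is homozygous, and do not say whether a sample held 1 embryo or several or whether embryos shared a litter. Values are MAS5 intensities, a linear brightness that the authors had already scaled between arrays. Differences are given as Foxf2 mutant minus wild type on the scale log2(intensity + 16).

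Forkhead factors bind DNA through a shared winged-helix domain and differ in what surrounds it. FOXP proteins are repressors that act as dimers with each other. Foxp1 and Foxp2 mark striatal projection neurons and particular cortical layers, and FOXP2 in humans is known for its part in speech. FOXO proteins carry the response to insulin and growth factors: AKT phosphorylates them and they leave the nucleus. FOXN3 and FOXK1 are repressors that recruit SIN3 complexes, while FOXM1 drives the genes of mitosis in dividing cells. Foxf2, the mutated gene, belongs to the same family and is known from the pericytes of brain capillaries.

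Because the mutated gene itself encodes a forkhead protein, the promoters of the 8 genes were read for forkhead motifs. RefSeq promoters of GRCm38.p6, each 250 bases before to 50 bases after a start site, were found for 5 of the 8 genes: Foxp1 with 3 start sites, and Foxp4, Foxo1, Foxo3 and Foxn3 with 1 each. The motif TGTTTAC was searched on both strands and was in 0 of these 7 promoters and in 3.65% of all 32851 promoters in the table. The related motif TGTTTAT, which shares its first 6 bases with it, was in 2 of the 7 and in 4.6% of all. Both matches lay before start sites of Foxp1, and they are shown with 20 bases on either side, read 5′ to 3′ along the gene, with the match in capitals. The first lies 92 bases before the start at chr6:99521059-99521105 on the minus strand and reads the reverse complement of the motif. The second lies 77 bases before the middle one of the 3 starts, at chr6:99266566-99266612 on the minus strand. A match of these letters is a description of the sequence and not a binding site.
Foxp1, outer start: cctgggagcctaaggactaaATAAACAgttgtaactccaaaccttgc
Foxp1, middle start: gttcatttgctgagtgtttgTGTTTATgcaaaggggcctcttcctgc

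Foxf2 read 8.06, 3.31 and 7.57 in the mutant brains, against 18.6, 24.4 and 13.8 in the wild-type brains, on its brighter probe set. Every mutant value lay under every wild-type value. With 3 samples in each group the exact permutation p (two-sided) was 0.1, as low as such a design can go. The probe set is so dim that it fell under the filter used for testing. Markers of neurons were bright on every array: all 8 passed the filter, and their summed intensity was 19004 to 19368 in the mutant and 18662 to 19259 in the wild-type brains. A pair of arrays stood apart in tissue other than brain. The summed intensity of 6 skeletal muscle markers was 1471 on mutant array 3 and at most 113 on the other 5 arrays. That of 6 pituitary markers was 1998 on wild-type array 3, 285 on mutant array 3 and 48.3 to 77.7 on the others. In whole-brain RNA, fewer cells of a type and less RNA per cell cannot be told apart.

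None of the 8 forkhead genes passed the test between Foxf2 mutant and wild-type brains. A probe set was tested when its mean intensity reached 13.5, the 40th percentile of the array, and called at an adjusted p under 0.05 (limma, Benjamini-Hochberg over 27022 probe sets). Of the 35 probe sets 28 were tested and 0 were called, where 0.389% of all tested probe sets were called. Of those called over the whole array, 99 were higher and 6 lower in the mutant brains. At an unadjusted p under 0.05 there was 1 of the 28, a Foxm1 probe set, against 13.6% of all tested. The groups did not overlap for 5 of the 28, or 17.9%, against 20.3% of all tested. The differences of the 28 had a median of -0.04 and ran from -0.23 to 0.47, and the median over all tested was -0.01. Their median size without regard to sign was 0.10, close to the 0.11 of all tested probe sets.

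For 1 value per gene, the log2 values of its tested probe sets were averaged on each array and refitted with limma over all 12577 tested genes. Of these 0.0318% were called, and 0 of the 8. The differences of these means were -0.12 for Foxp1, -0.03 for Foxp2, -0.10 for Foxp4, -0.05 for Foxo1, 0.00 for Foxo3, 0.08 for Foxn3, -0.04 for Foxk1 and 0.21 for Foxm1. The smallest adjusted p was 0.426, for Foxm1. Folds of mutant over wild type were taken with the constant of the log2 scale, the offset, still added to each intensity. In these folds the 95% intervals of the 8 means spanned 0.763, the lower bound of Foxp4, to 1.35, the upper bound of Foxm1. The offset draws folds of dim genes toward no change, so these bounds do not limit the change in intensity itself. On Foxm1 1448833_at the fold was 1.39 with the offset, and the ratio of mean intensities without it was 1.60. The intervals narrowest on the log2 scale, given here as folds, were those of Foxo1, 0.855 to 1.09, and Foxn3, 0.934 to 1.19. Those of Foxo3, 0.885 to 1.13, and Foxk1, 0.856 to 1.11, came next.

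**Figure D1:**
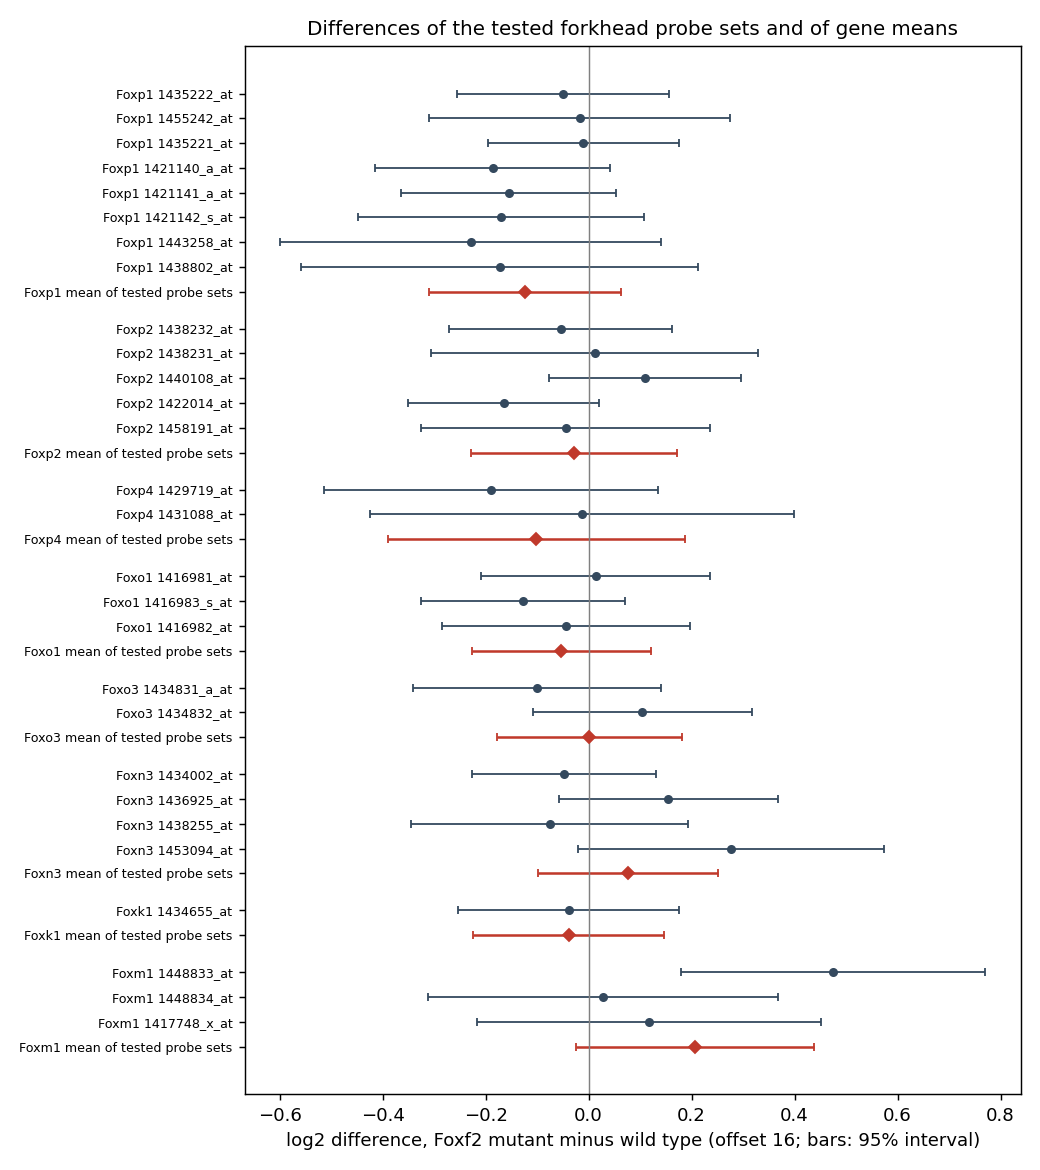
Log2 differences (x axis, Foxf2 mutant minus wild type) with 95% intervals for the 28 tested probe sets (dark circles) and for the mean over the tested probe sets of each gene (red diamonds). Every interval crosses 0 except that of Foxm1 probe set 1448833_at, which runs from 0.18 to 0.77, and all 8 gene means cross 0.

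Foxp1 had a negative difference on all 8 of its probe sets, none past the threshold, and the sign of 2 of them turned under quantile normalization. Its brightest, 1435222_at, read 672, 584 and 637 in the mutant brains, against 587, 736 and 643 in the wild-type brains. These values interleave, with a difference of -0.05 ± 0.09 (SE, adjusted p = 0.853 by limma). Another, 1421140_a_at, read 235, 244 and 199 in the mutant brains, against 254, 236 and 287 in the wild-type brains. Here only mutant array 2 reached into the wild-type range, and the difference was -0.19 ± 0.10 (SE, adjusted p = 0.46 by limma). On 1421141_a_at the groups did not overlap: 90.0, 81.1 and 79.3 in the mutant brains, against 94.4, 91.5 and 98.1 in the wild-type brains, a difference of -0.16 ± 0.09 (SE, adjusted p = 0.504 by limma). The 8 differences ran from -0.23, on the dim probe set 1443258_at, to -0.01, and their median was -0.16.

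These 8 are not independent readings of Foxp1. The platform annotation gives 1 sequence record for 3 of them (1435222_at, 1455242_at and 1435221_at) and another for a further 3 (1421140_a_at, 1421141_a_at and 1421142_s_at). The first trio lay at -0.05, -0.02 and -0.01, and the second at -0.19, -0.16 and -0.17. Single arrays also weighed on the sign. Mutant array 3, the one with muscle transcripts, was the lowest of the 6 arrays on 6 of the 8 probe sets. Wild-type array 3, the one with the largest pituitary sum, was the highest on 5. The mean over the 8 differed by -0.12, with an interval of -0.31 to 0.06, and kept its sign when any 1 array was left out, between -0.17 and -0.06. Without both arrays numbered 3, an alternative chosen after seeing the data, it shrank to -0.017, and 1421140_a_at to -0.03, against -0.19 with all arrays. Under quantile normalization 1455242_at and 1435221_at turned to 0.0033 and 0.017, so the common sign of the 8 depended on the scaling.

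Foxp2 had no probe set past the threshold, and on its 2 brightest the mutant values lay inside the wild-type range. Its brightest probe set, 1438232_at, read 706, 709 and 650 in the mutant brains, against 715, 623 and 818 in the wild-type brains. Wild-type arrays 2 and 3 were the lowest and the highest of all 6, and the difference was -0.05 ± 0.10 (SE, adjusted p = 0.847 by limma). On 1438231_at the values were 422, 358 and 379 in the mutant brains, against 432, 295 and 438 in the wild-type brains. Wild-type array 2 was the lowest wild type on all 5 tested probe sets of Foxp2 and the lowest of all 6 arrays on 4 of them.

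The groups did not overlap on 1 Foxp2 probe set, 1422014_at, with 141, 153 and 143 in the mutant brains, against 167, 154 and 174 in the wild-type brains. Its difference was -0.17 ± 0.08 (SE, adjusted p = 0.418 by limma), and the other 4 tested ran from -0.05 to 0.11. After removal of the group means, the 5 probe sets followed each other over the 6 arrays with a median Pearson correlation of 0.78, between 0.28 and 0.998, as a description. The median for the 8 of Foxp1 was 0.46, between -0.69 and 0.99. The remaining Foxp2 probe set, 1441365_at, averaged 10.7 ± 1.58 in mutant and 10.5 ± 1.34 in wild-type brains (SD, n = 3 each) and was too dim to test.

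**Figure D2:**
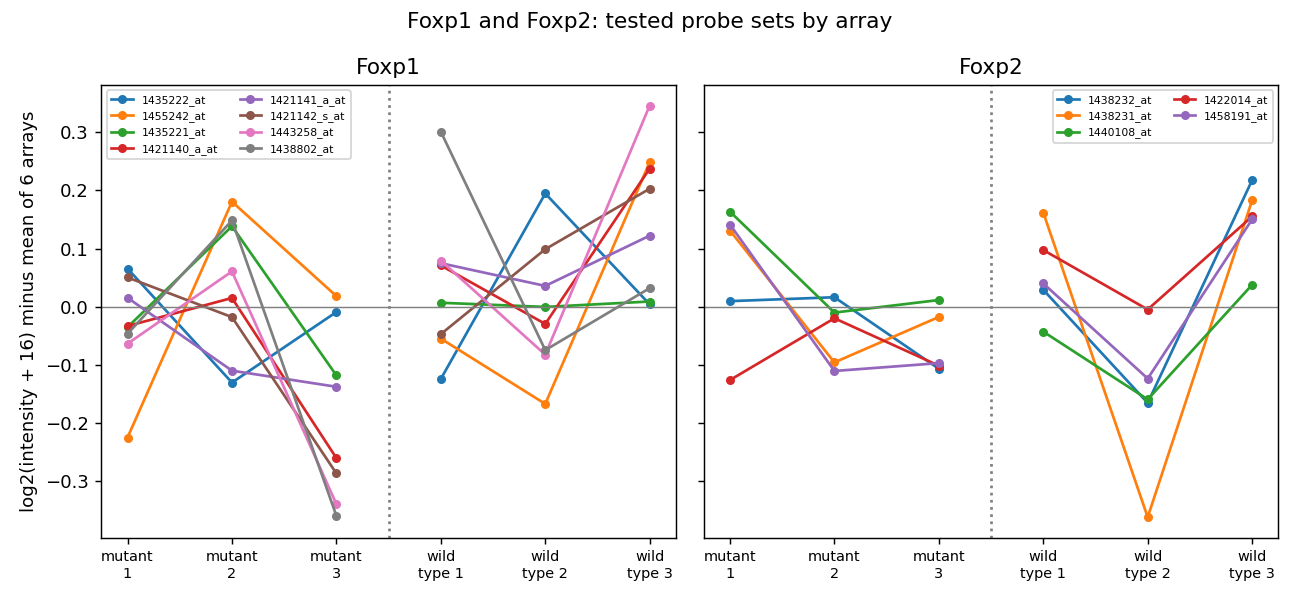
Deviation of each tested Foxp1 (left) and Foxp2 (right) probe set from its own mean over the 6 arrays (y axis, log2 units), by array. Lines only join the points of 1 probe set within a genotype. Mutant array 3 is lowest on 6 of 8 Foxp1 probe sets, and wild-type array 2 is lowest on 4 of 5 Foxp2 probe sets.

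Foxp4, another FOXP factor of the brain, read 67.8, 65.8 and 55.4 in the mutant brains, against 73.7, 91.4 and 59.4 in the wild-type brains, on 1429719_at. Wild-type array 3 lay below 2 of the mutants, and the difference was -0.19 ± 0.14 (SE, adjusted p = 0.602 by limma). Its other tested probe set, 1431088_at, averaged 21.6 ± 8.87 in mutant and 21.5 ± 4.16 in wild-type brains (SD, n = 3 each). The last, 1431437_at, was too dim to test.

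Of 4 marker lists for regions where Foxp1 or Foxp2 is known to be active, summed intensities did not overlap between the groups for the striatal and cortical lists and overlapped for the thalamic and Purkinje lists. The sum of 14 striatal markers was 5057 to 5218 in mutant and 4441 to 4670 in wild-type brains. Of the 14, 10 were higher and 4 lower in the mutants, and 0 were called. Most of that gap came from Gad1 and Meis2, neither of them specific to striatum. Gad1, a GABA synthesis enzyme, averaged 1295 ± 106 in mutant and 1039 ± 36.7 in wild-type brains (SD, n = 3 each). Meis2, a homeobox gene, averaged 1090 ± 6.47 in mutant and 832 ± 78.1 in wild-type brains (SD, n = 3 each). Gad2, the second GABA synthesis enzyme, lay the other way without overlap, at 235 ± 2.89 in mutant and 288 ± 30.6 in wild-type brains (SD, n = 3 each). The sum of 11 cortical layer markers was 4397 to 4403 in mutant and 3670 to 4376 in wild-type brains, with 7 higher, 4 lower and 0 called. Most of the gap between the mean sums came from Neurod6, with 1179 ± 46.3 in mutant and 950 ± 145 in wild-type brains (SD, n = 3 each). Cux2 and Tbr1 also lay higher without overlap, and Tle4 and Neurod2 lower without overlap. The groups did not overlap for 5 of the 11 cortical markers (45.5%) and 4 of the 14 striatal ones (28.6%). Over all tested genes with 1 probe set each the share was 21%. The sum of 7 thalamic markers was 1293 to 1493 in mutant and 1447 to 1548 in wild-type brains. That of 6 Purkinje cell markers was 1865 to 1993 in mutant and 1677 to 2181 in wild-type brains, with 0 called in either list. The part of these sums in the Foxp1 and Foxp2 values was not tested. Of 21 tested partners and target genes of FOXP factors 0 were called, with 8 higher, 13 lower and a median of -0.03. The 2 with the largest differences were Tbr1, a transcription factor of deep cortical layers that binds FOXP2, at 0.36 (adjusted p = 0.244 by limma), and Nlgn1, a synaptic adhesion gene, at -0.25 (adjusted p = 0.537 by limma). Cntnap2, a neurexin-family gene repressed by FOXP2 in human cells, had -0.01, and Mef2c, a target of Foxp2 in striatal neurons, had -0.03.

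Foxo1 differed little. Its brightest probe set, 1416981_at, read 114, 133 and 105 in the mutant brains, against 116, 115 and 115 in the wild-type brains, a difference of 0.01 ± 0.10 (SE, adjusted p = 0.968 by limma). The wild-type values were almost equal and lay within the mutant range. On 1416983_s_at the mutant brains read 94.5, 104 and 106, against 112, 116 and 109 in the wild-type brains. These did not overlap, with a difference of -0.13 ± 0.09 (SE, adjusted p = 0.561 by limma). The last tested, 1416982_at, had -0.04, and all 3 come from 1 sequence record. Foxo1 is also known from endothelial cells, and the summed intensity of 8 endothelial markers was 766 to 839 in mutant and 942 to 985 in wild-type brains, without overlap. Of these 8, 5 were lower, 3 (Cdh5, Emcn and Pecam1) were higher and 0 were called. Most of the gap came from Cldn5, a tight junction gene, with 278 ± 22.4 in mutant and 380 ± 17.3 in wild-type brains, and Kdr, a VEGF receptor, with 112 ± 17.5 in mutant and 153 ± 7.39 in wild-type brains (SD, n = 3 each). The part of this sum in the Foxo1 values was not tested. The fourth Foxo1 probe set, 1456529_at, averaged 5.32 ± 2.56 in mutant and 2.26 ± 2.56 in wild-type brains (SD, n = 3 each), under the filter.

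Foxo3 had a pair of tested probe sets that pointed in opposite directions. On 1434831_a_at the mutant brains read 159, 163 and 196, against 185, 207 and 167 in the wild-type brains, a difference of -0.10 ± 0.11 (SE, adjusted p = 0.726 by limma). On 1434832_at they read 118, 128 and 123, against 127, 106 and 108 in the wild-type brains, a difference of 0.10 ± 0.09 (SE, adjusted p = 0.672 by limma). The groups overlapped on both, and their mean differed by 0.00, with an interval of -0.18 to 0.18. Its remaining probe set, 1450236_at, was too dim to test.

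The genes around the FOXO factors had no called member either. Among 18 tested regulators of FOXO, 0 were called, 7 were higher and 11 lower, with a median of -0.09. Most belong to the PI3K and AKT branch, but Ep300, Crebbp, Sirt1, Usp7 and Skp2 do not. At an unadjusted p under 0.05 there were 2 higher and 5 lower, and the groups did not overlap for 8 of the 18, or 44.4%. Over all tested genes with 1 probe set each, 13.6% had such a p and 21% did not overlap. The 2 largest differences were Ep300, a histone acetyltransferase that acetylates FOXO, at -0.41 (adjusted p = 0.243 by limma), and Igf1r, the receptor of insulin-like growth factors, at -0.31 (adjusted p = 0.297 by limma). Of 30 FOXO target genes 0 were called, 15 were higher and 15 lower, with a median of -0.01. Cat, which encodes catalase, read 615, 555 and 630 in the mutant brains, against 487, 464 and 447 in the wild-type brains, without overlap. It had the largest difference of these, 0.35 ± 0.07 (SE, adjusted p = 0.0837 by limma). Map1lc3b, an autophagy gene, followed with 0.26 (adjusted p = 0.18 by limma).

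Foxn3 gave a mixed picture over its 4 probe sets. The brightest, 1434002_at, read 182, 170 and 178 in the mutant brains, against 197, 174 and 179 in the wild-type brains, a difference of -0.05 ± 0.08 (SE, adjusted p = 0.831 by limma). On 1436925_at the mutant brains read 208, 166 and 182, against 165, 157 and 170 in the wild-type brains, with 2 of 3 mutants above every wild type and a difference of 0.15 ± 0.09 (SE, adjusted p = 0.51 by limma). The dim 1453094_at read 35.0, 35.1 and 28.6 in the mutant brains, against 24.2, 27.4 and 21.5 in the wild-type brains. These groups did not overlap, and the difference was 0.28 ± 0.13 (SE, adjusted p = 0.399 by limma). The last, 1438255_at, had -0.08. The mean over the 4 differed by 0.08, with an interval of -0.10 to 0.25.

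Foxk1 had a single tested probe set, 1434655_at, with 94.6, 115 and 103 in the mutant brains, against 109, 109 and 103 in the wild-type brains. The wild-type values lay within the mutant range, and the difference was -0.04 ± 0.09 (SE, adjusted p = 0.893 by limma). Its other 2 probe sets averaged 7.38 ± 0.758 and 2.99 ± 2.17 in mutant brains, and 6.92 ± 2.02 and 4.19 ± 2.98 in wild-type brains (SD, n = 3 each), both too dim to test. Of 14 tested genes for SIN3-type corepressors and FOXK partners 0 were called, 5 were higher and 9 lower, with a median of -0.07. The 2 largest differences were Sin3a, the scaffold of that complex, at -0.27 (adjusted p = 0.316 by limma), and Asxl1, a partner of the deubiquitinase Bap1, at -0.27 (adjusted p = 0.274 by limma).

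Foxm1 had the largest difference of the 28, on 1 probe set. On 1448833_at the mutant brains read 45.4, 57.1 and 44.2, against 27.4, 33.4 and 31.0 in the wild-type brains. All 3 mutants lay above all 3 wild types, with means of 48.9 ± 7.14 in mutant and 30.6 ± 3.02 in wild-type brains (SD, n = 3 each). The difference was 0.47 ± 0.13 (SE), or 1.39-fold with an interval of 1.13 to 1.71, and it did not pass the threshold (adjusted p = 0.173 by limma). It stayed between 0.39 and 0.53 when any 1 array was left out, and the ratio of the mean intensities without the offset was 1.60.

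The other Foxm1 probe sets were dimmer and overlapped between the groups. On 1448834_at the mutant brains read 23.3, 13.7 and 23.1, against 20.2, 19.7 and 17.3 in the wild-type brains, a difference of 0.03 ± 0.15 (SE, adjusted p = 0.955 by limma). On 1417748_x_at they read 23.2, 15.7 and 22.4, against 14.1, 17.3 and 21.4 in the wild-type brains, a difference of 0.12 ± 0.15 (SE, adjusted p = 0.776 by limma). Mutant array 2 was the highest array on 1448833_at and the lowest mutant on both others. All 3 come from the same sequence record. After removal of the group means their correlations over the 6 arrays ran from -0.86 to 0.54, so they did not follow each other from array to array. The last probe set, 1437138_at, averaged 1.66 ± 1.68 in mutant and 1.68 ± 0.853 in wild-type brains (SD, n = 3 each).

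**Figure D3:**
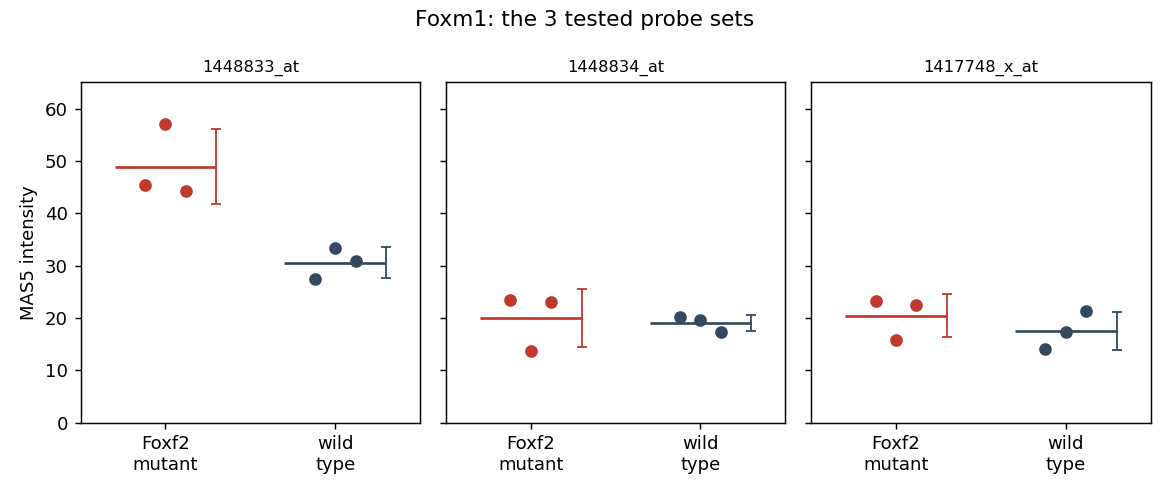
MAS5 intensities of the 3 tested Foxm1 probe sets, 1 point per brain, with group means (horizontal lines) and SD bars. The 3 mutant brains lie at 44.2 to 57.1 on 1448833_at, above the wild-type brains, and overlap with them on 1448834_at and 1417748_x_at.

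The mitotic genes that FOXM1 is known to drive showed no called member. Of 23 tested partners and G2/M target genes 0 were called and 0 had an unadjusted p under 0.05 by limma, against 13.6% of all tested genes. They split into 12 higher and 11 lower, with a median of 0.03 and a range of -0.19 to 0.29. Lin52, a subunit of the MuvB complex that works with FOXM1, had 0.29 on a dim probe set (adjusted p = 0.49 by limma), and Ccnb2, a mitotic cyclin, had -0.19 (adjusted p = 0.551 by limma). Plk1, the mitotic kinase, had 0.06, Aurka 0.07, Birc5 0.03 and Top2a -0.11. The summed intensity of 9 markers of dividing progenitors was 3282 to 3666 in mutant and 3490 to 3583 in wild-type brains, which overlap. Most of that sum came from Pcna and Sox2, the brightest of the 9. Of the 9, 2 were higher, 7 lower and 0 called, with a median difference of -0.11. Ccna2, a cyclin, had -0.43 without overlap, and Mcm2, a replication gene, had 0.42. The groups did not overlap for 11.1% of the 9, against 21% of all tested genes with 1 probe set each.

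**Figure D4:**
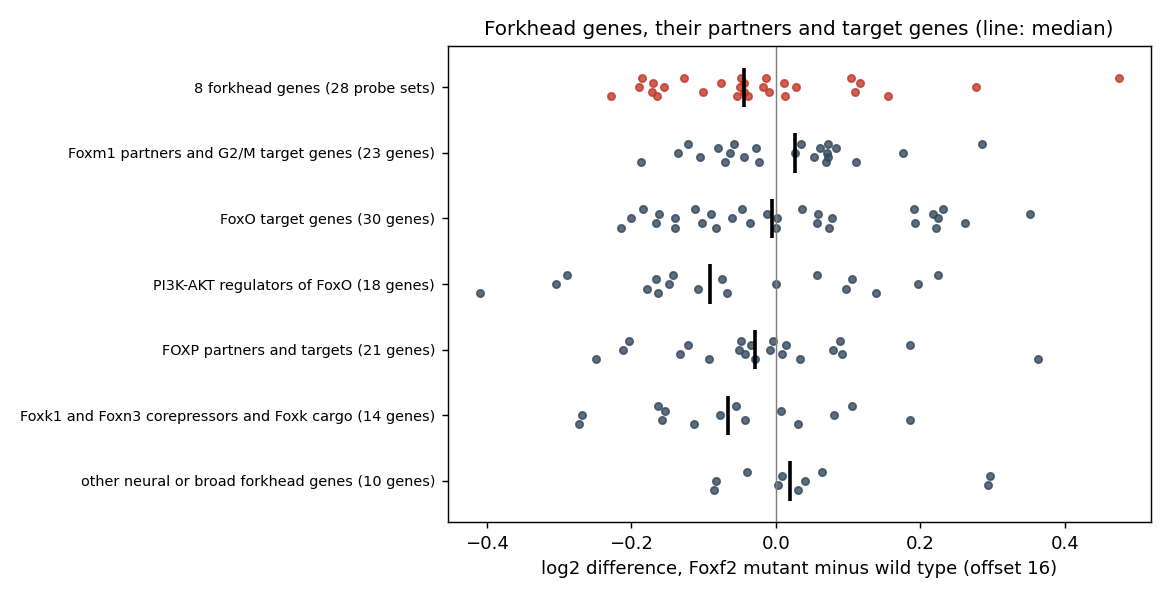
Log2 differences (x axis, Foxf2 mutant minus wild type) of the 28 tested forkhead probe sets (red) and of genes in the lists of partners, regulators and targets (dark, 1 probe set per gene), with medians as black lines. The medians lie between -0.09, for the FOXO regulators (labelled PI3K-AKT, though not all belong to that branch), and 0.03, for the Foxm1 partners and targets.

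Agreement between probe sets was tested within genes. On each array a probe set was set against the mean of the other tested probe sets of its gene, and this departure was compared between mutant and wild-type brains over all 16838 such probe sets. Of these 0.487% were called, and 0 of the 27 that belong to the 7 genes with several tested probe sets. At an unadjusted p under 0.05 there was 1 of the 27, against 17.5% of all, and it was Foxm1 1448833_at, with a departure of 0.40 ± 0.16 (SE, adjusted p = 0.255 by limma). The next largest were Foxm1 1448834_at at -0.27 and Foxn3 1453094_at at 0.27. Departures within 1 gene are not independent, since each probe set also enters the mean set against the others. The value of Foxm1 1448834_at is therefore tied to that of 1448833_at. The differences of the 8 Foxp1 probe sets spanned 0.22, where the median span over the 13 genes with 8 tested probe sets was 0.58 and 0 of these genes had a smaller one. The 3 tested of Foxm1 spanned 0.45, above 81.4% of the 1541 genes with 3. Spans of Foxp2, Foxo1, Foxo3, Foxn3 and Foxp4 were 0.28, 0.14, 0.20, 0.35 and 0.18.

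**Figure D5:**
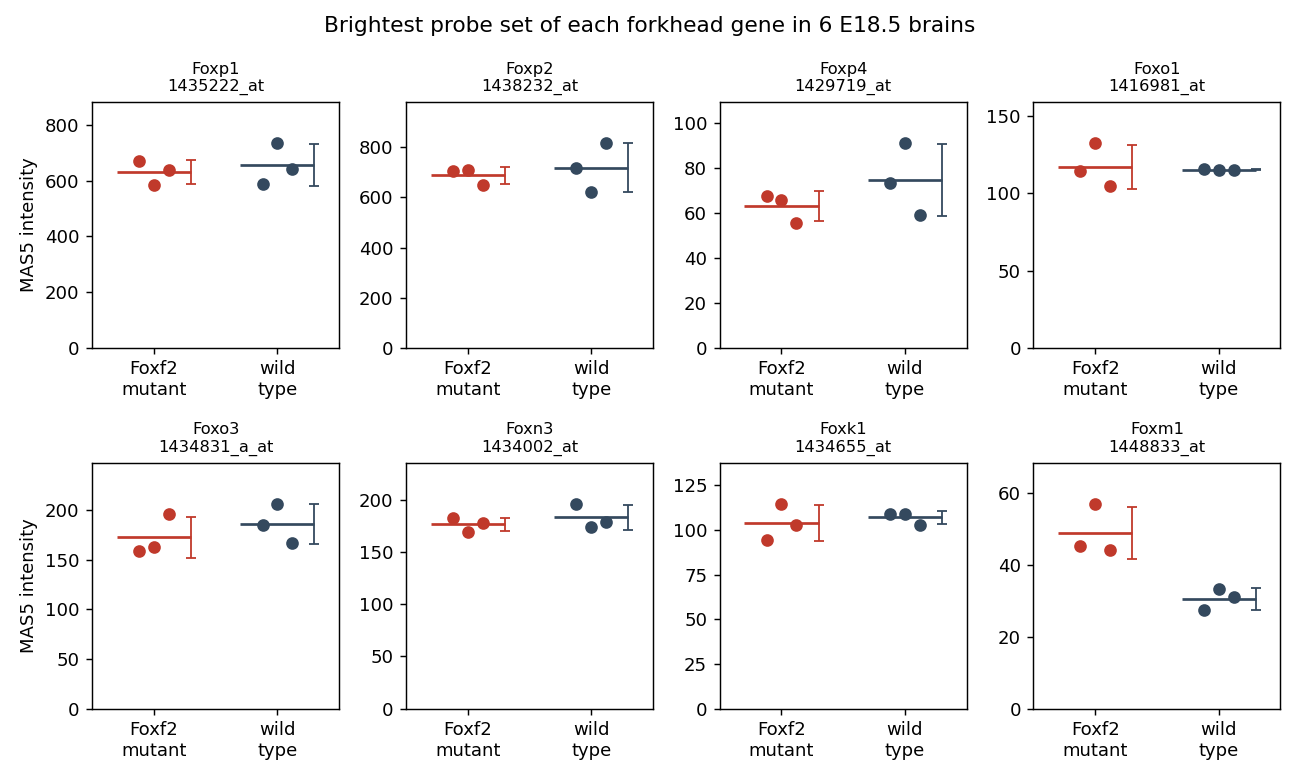
MAS5 intensity (y axis, from 0) of the brightest probe set of each of the 8 genes, 1 point per brain, Foxf2 mutant left and wild type right, with means (lines) and SD bars (n = 3 each). The groups overlap for all except Foxm1; levels of different genes are not comparable across panels.

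Among the 29 other forkhead genes with a singly assigned probe set, Foxf2 included, 16 were tested and 0 were called, with 13 higher and 3 lower and a median of 0.04. With 1 probe set each, the 8 genes described here had 2 higher and 6 lower and a median of -0.05. Over all tested genes with 1 probe set each, 6077 were higher and 6500 lower, with a median of -0.01. Most of the 16 were dimmer than the 8. The median over all probe sets was 0.01 without the filter and -0.03 with a filter at the 60th percentile. The part of brightness in the 2 splits was not tested. The largest differences of the 16 tested were Foxq1 at 0.41 (adjusted p = 0.247 by limma) and Foxn2 at 0.30 (adjusted p = 0.642 by limma). Of those too dim to test, Foxf2 itself had -0.64 and Foxs1 0.36. Of genes in the same FOXO, FOXK and FOXN groups as the 8, Foxo4 and Foxk2 had 0.03 and 0.01, and Foxn2 the 0.30 above. Too dim to test were Foxp3 at 0.22, Foxn1 at 0.02 and Foxn4 at -0.08. Foxj3, outside these groups, had -0.08.

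The genes whose levels followed each forkhead gene most closely over the 6 arrays were looked up among 12576 other genes. For Foxp1 they were Pecr and Sgo1, with Pearson correlations of 0.992 and 0.986. For Foxp2 they were Gm38491 and Dusp26, with 0.985 and 0.98, and for Foxp4 B3galt5 and Preb, with 0.995 and 0.984. Foxo1 went with Setd1b and C330018D20Rik, at 0.98 both, and Foxo3 with Relt and Dnpep, at 0.99 both. Foxn3 went with Atf4 and Gnai3, at 0.989 and 0.987, and Foxk1 with Apba1 and Ppp2r2c, at 0.995 and 0.993. Foxm1 went with Man1a and Tmem47, at 0.993 both. Between 42 and 244 genes reached a correlation over 0.9 with each of the 8. These are descriptions over 6 arrays with a common scaling. Group means were not removed, so differences between mutant and wild-type brains enter the correlations. Man1a and Tmem47 themselves had differences of 0.32 and 0.34, beside the 0.47 of Foxm1. With so many genes searched high values are found for any gene.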

How the data were processed

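Whole-brain RNA from 3 Foxf2 mutant and 3 wild-type samples at E18.5 was measured on 6 Affymetrix arrays. The deposited values are intensities on a linear scale made with MAS5, per the submitters' processing notes, whose version is not given in the sources used here. Trimmed of the lowest and highest 2% of probe sets, their mean was 100 on each array, so they were not normalized again. The medians still differed, at 24.42 to 25.59 on the mutant arrays and 23.18 to 23.69 on the wild-type arrays. The part of this in the differences of dim probe sets was not tested. Of 45101 probe sets 64 controls were left out. Gene names come from the platform annotation, in which 34945 probe sets had 1 symbol, 932 several and 9160 none listed.

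Values were analysed as log2(intensity + 16) with limma 3.58.1 under R 4.3.3 (lmFit and a trended eBayes, two-sided), fitted on all 45037 probe sets. Benjamini-Hochberg adjustment covered the 27022 whose mean reached the 40th percentile. Folds understate the change of dim genes. All 8 genes are named, but not each of their probe sets. Not named above were Foxp1 1438802_at, with a difference of -0.17, and Foxp2 1440108_at, with 0.11. The 2 dim Foxk1 probe sets given above only as averages were 1451752_at and 1421759_a_at. In each list of partners and targets the rule named called genes or otherwise the 2 with the largest difference. Further genes were added after their values were seen. These were Cntnap2, Mef2c, Plk1, Aurka, Birc5, Top2a, Foxo4, Foxk2, Foxj3, Foxs1, Foxp3, Foxn1, Foxn4, Gad1, Gad2, Meis2, Neurod6, Cux2, Tle4, Neurod2, Cldn5, Kdr, Cdh5, Emcn, Pecam1, Pcna, Sox2, Ccna2 and Mcm2. The members and lists were chosen with earlier results of these data known. Groups came from the labels, which do not say that samples came from separate embryos or litters, so p-values measure only the spread between these samples. The number of arrays limits the precision. Deviations of same-numbered mutant and wild-type arrays correlated at 0.183, 0.132 and 0.0892, so the numbers were not taken as pairs. Fits were tested on simulated data. Alternatives covered the offset, the filter, the scaling, the variance trend, the replicate block, sex read from Y-linked signal, and arrays left out.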

Additional observations from a re-analysis of the deposited data

How the results depend on the processing

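In none of the 16 other settings did a probe set or a gene mean of the 8 forkhead genes pass the threshold. Their smallest adjusted p ran from 0.147 to 0.466 for probe sets, and for Foxm1 1448833_at the difference ran from 0.25 to 0.65, both with a changed offset. The count of all called probe sets, 105, was 181 with offset 1, 64 with offset 64, 52 without the filter, 168 with a filter at the 60th percentile, 56 with median centring, 0 without the variance trend, 220 with the replicate block, 0 with sex as a covariate and 0 to 34 with 1 array left out. The 82 probe sets that departed from the others of their gene became 0 with offset 1, 501 with offset 64, 0 without the filter, 363 at the 60th percentile, 0 with sex as a covariate and 0 to 5 with 1 array left out. The 4 called gene means became 17 at the 60th percentile, 24 with the replicate block, 0 with sex as a covariate and 0 to 8 with 1 array left out. Leaving out both arrays numbered 3, an alternative chosen after seeing the data, gave 0 in all 3 counts, and 2748, 2428 and 1311 at an unadjusted p under 0.05 by limma. The causes were not tested. The replicate block changed no forkhead call. The Y-linked gene Eif2s3y read 260 on mutant array 2 and at most 2.12 on the others. Xist averaged 4.73 on mutant array 2 and 414 to 950 on the others. By these signals only mutant array 2 was male, and no wild-type array was. Sex as a covariate thus separates only mutant array 2, so it repeats the fit without that array.

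Signs turned for small differences. With sex as a covariate they were 0.0034 (Foxp1 1435222_at), 0.063 (Foxp4 1431088_at), -0.069 (Foxo1 1416981_at) and 0.021 (Foxn3 1438255_at). With quantile normalization they were 0.0033 (Foxp1 1455242_at), 0.017 (Foxp1 1435221_at) and -0.031 (Foxm1 1448834_at). With median centring they were -0.043 (Foxp2 1438231_at), -0.041 (Foxo1 1416981_at), -0.026 (Foxm1 1448834_at) and -0.052 (Foxo3 mean). With offset 64 the value was -0.0023 (Foxo3 mean). Without the filter it was 0.017 (Foxo1 mean). Without both arrays numbered 3 they were 0.089 (Foxp1 1455242_at), 0.048 (Foxp1 1435221_at), 0.00019 (Foxp1 1443258_at), 0.081 (Foxp2 1438232_at), 0.057 (Foxp2 1458191_at), 0.036 (Foxp4 1431088_at), -0.073 (Foxm1 1448834_at), 0.063 (Foxp2 mean) and -0.094 (Foxo3 mean). The 28 probe sets then split into 14 higher and 14 lower, with a median of -0.0047, and the Foxp1 mean was -0.017. With 1 array left out the ranges were -0.12 to 0.035 (Foxp1 1435222_at), -0.11 to 0.10 (Foxp1 1455242_at), -0.082 to 0.047 (Foxp1 1435221_at), -0.15 to 0.041 (Foxp2 1438232_at), -0.17 to 0.11 (Foxp2 1438231_at), -0.13 to 0.020 (Foxp2 1458191_at), -0.20 to 0.096 (Foxp4 1431088_at), -0.069 to 0.082 (Foxo1 1416981_at), -0.11 to 0.0080 (Foxo1 1416982_at), -0.18 to 0.021 (Foxn3 1438255_at), -0.10 to 0.018 (Foxk1 1434655_at), -0.041 to 0.16 (Foxm1 1448834_at), -0.12 to 0.039 (Foxp2 mean), -0.049 to 0.042 (Foxo3 mean) and -0.10 to 0.018 (Foxk1 mean).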
